A study of Mus musculus with 9 samples.

Results

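Ly6a, the gene of the sort marker Sca-1, and 7 of its relatives (Ly6c1, Ly6c2, Ly6e, Ly6d, Ly6g, Ly6k and Gpihbp1) were followed in sorted BM cells labelled as ECs. They were chosen by their gene names in the deposited table and are 8 of its 46078 genes. Of the 8, 6 (Ly6a, Ly6c1, Ly6c2, Ly6e, Ly6d and Gpihbp1) had enough counts to pass edgeR's filter on low counts, which 15937 genes passed, while Ly6g and Ly6k did not. The question was whether relatives of the sort marker followed it between the sorted fractions.

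The cells were sorted from the BM of normal wild-type B6 mice as CD45-Ter119-CD31+ cells and divided into Sca-1+ cells (4 libraries, labelled 7, 13, 15 and 19) and Sca-1- cells (5 libraries, labelled 8, 10, 14, 16 and 22). No treatment or transgene was labelled in either fraction, and the labels do not say whether a library came from 1 animal or from a pool. RNA was amplified from poly(A) tails from 2 ng by SMART-Seq v4, a low-input kit without molecular identifiers, so PCR copies are part of the counts. All 9 libraries are labelled B6 and wild type, but the titles carry marks that the labels do not explain. The letters wt stand in those of libraries 8, 15, 16 and 19, CD452 in those of 13, 14 and 22, the same digits without letters in that of 10 and no mark in that of 7. Libraries 15 (Sca-1+) and 16 (Sca-1-) share a number in their titles, and whether they came from the same animal is not stated. The titles also open with a running number, all lower in Sca-1+ than in Sca-1- libraries, and a batch that went with it cannot be told apart from the fraction.

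Members of the Ly6 family are small proteins built on a fold held by disulfide bonds, and most are tied to the outer face of the cell membrane by a lipid (GPI) anchor. Sca-1 marks hematopoietic stem and progenitor cells and also arteries and arterioles of the BM, Ly6C marks subsets of monocytes and other leukocytes, and Ly6G marks neutrophils. GPIHBP1 is a Ly6 protein of capillary ECs that carries lipoprotein lipase across the endothelium and holds it at the vessel wall.

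Total counts per library lay between 21581653 and 25959818, and the level that 3 counts give, taken as the floor, lay between 0.0995 and 0.209 CPM (counts relative to library size, scaled by TMM). Counting error alone is covered by this floor. Means are followed by ± the SD over the libraries of a fraction (n = 4 for Sca-1+ and n = 5 for Sca-1-), the Sca-1+ value first. The labelled cell type was checked with 25 general endothelial genes. Their summed share of counts was 2.11% to 2.66% in Sca-1+ libraries and 0.231% to 0.329% in Sca-1- libraries. The levels of Cdh5, which encodes the endothelial cadherin, were 264 ± 27.1 CPM and 7.13 ± 3.91 CPM. A list of 16 megakaryocyte and platelet genes took 0.00558% to 0.0117% of counts in Sca-1+ libraries and 3.07% to 6.48% in Sca-1- libraries, and all 16 were lower in Sca-1+ cells by edgeR's test. Of the 25 endothelial genes, 22 were higher and 1 was lower in Sca-1+ cells, and 2 did not differ at the threshold (edgeR). The 3 exceptions were named after their values were seen. Pecam1, the gene of the sort marker CD31 that both fractions share, was at 1397 ± 259 CPM and 835 ± 612 CPM (adjusted p = 0.247, edgeR), and the fractions overlapped. Esam, an adhesion molecule gene of ECs and platelets, was at 1200.1 ± 47.0 CPM and 1030.1 ± 844 CPM (adjusted p = 0.764, edgeR). Vwf, the von Willebrand factor gene of ECs and megakaryocytes, was lower in Sca-1+ cells, at 75.5 ± 45.1 CPM and 777 ± 445 CPM. The remaining 22 were thus lower in the libraries labelled Sca-1-, and each level below is a level in the whole sorted fraction. In such bulk samples fewer cells of a type and less RNA per cell cannot be told apart.

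All 8 genes lie on chromosome 15 (GRCm38), within 46 genes of the table whose starts run from Psca to Gpihbp1. Ly6a (ENSMUSG00000075602) lies from 74994877 to 74998031, Ly6c1 from 75044018 to 75048830 and Ly6c2 from 75108158 to 75111970, each on the minus strand. The coding sequences of Ly6c1 and Ly6c2 match at 387 of 396 bases (97.7%). Ly6a matches Ly6c1 at 82.0% and Ly6g at 83.2% of aligned bases, whereas Gpihbp1 matches the other members at 40.3% to 44.1%. The stretch of the coding sequence in which Ly6c1 and Ly6c2 differ most is given for the 4 closest members, since reads have to be told apart by such bases. It covers positions 6 to 65 counted from the start codon, 5′ to 3′, and capitals mark bases that differ from Ly6c1.
Ly6c1: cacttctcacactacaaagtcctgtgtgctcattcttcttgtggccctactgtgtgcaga
Ly6c2: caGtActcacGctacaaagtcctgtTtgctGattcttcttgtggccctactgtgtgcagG
Ly6a: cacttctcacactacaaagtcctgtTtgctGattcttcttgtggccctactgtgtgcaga
Ly6g: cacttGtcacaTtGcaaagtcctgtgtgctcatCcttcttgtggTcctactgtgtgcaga
Ly6c2 differed from Ly6c1 at 6 of these 60 bases, Ly6a at 2 and Ly6g at 5. Over all annotated transcripts (GENCODE M21), 32.8% of the 50-base windows of Ly6c1, 19% of those of Ly6a and 14.5% of those of Ly6c2 also occur in another gene. At 100 bases the shares were 10.1%, 1.45% and 5.81%. Ly6e, Ly6d and Gpihbp1 shared no window of 50 bases. How reads that match more than 1 gene were counted is not given in the sources used here, so the counts of Ly6a, Ly6c1 and Ly6c2 are uncertain. These shares of windows do not bound the error in the counts.

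The genes Ly6a, Ly6c1, Ly6e and Gpihbp1 were higher in Sca-1+ cells. In all 4 every Sca-1+ library lay above every Sca-1- library, as in 24.7% of all genes tested. Ly6c2 and Ly6d passed the filter and did not differ at the threshold. By edgeR's quasi-likelihood test, with Benjamini-Hochberg adjustment over the 15937 genes, 4 of the 6 members tested were higher in Sca-1+ cells at an adjusted p under 0.05, where 23.3% of all genes tested were. No member was lower by edgeR's test at an adjusted or an unadjusted p under 0.05 (0 of 6 in both cases), nor by DESeq2 (0 of 6), while limma voom called 1 (Ly6d). Over all genes tested 21.4% were lower. The median log2 fold change of the 6 members was 4.76, and that of all genes tested was 0.07. Ly6a, whose difference is a check of the sort, is counted in the 4 of 6 and in this median. The members were chosen with earlier results of these data known, so the shares of all genes are set beside them as a description only. Together the 4 higher genes took 0.694% to 0.895% of all counts in a Sca-1+ library and 0.00747% to 0.0843% in a Sca-1- library.

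**Figure D1:**
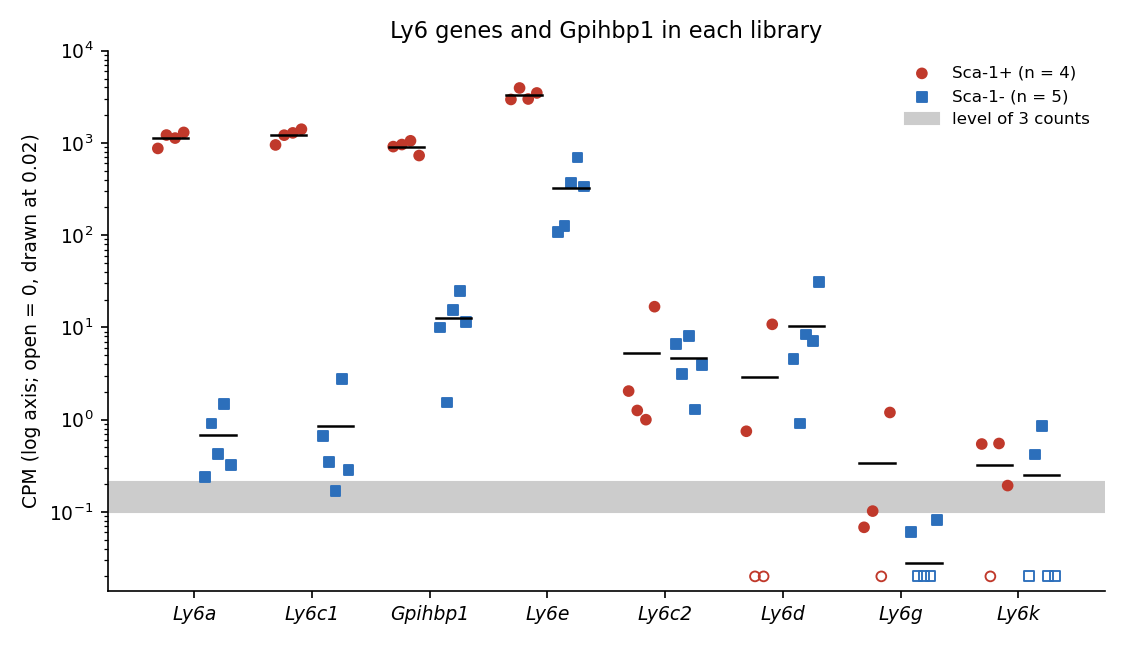
CPM of each member in each library on a log axis, with Sca-1+ libraries as circles, Sca-1- libraries as squares, the mean as a line and the level of 3 counts as a grey band. Ly6a, Ly6c1, Gpihbp1 and Ly6e are separated between the fractions, while Ly6c2, Ly6d, Ly6g and Ly6k overlap and each of the first 3 of these has 1 high Sca-1+ library.

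Ly6a was counted at 873, 1219, 1130 and 1302 CPM in Sca-1+ libraries 7, 13, 15 and 19, and at 0.240, 0.907, 0.424, 1.49 and 0.325 CPM in Sca-1- libraries 8, 10, 14, 16 and 22. The fractions did not overlap, with Sca-1- library 16, at 45 counts, the highest of its fraction. The log2 fold change was 10.67 (SE 0.63, adjusted p = 8.07e-06, edgeR). Since Ly6a encodes the protein used for the sort, this is a check of the sort and not a result.

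Ly6c1, which encodes one of the 2 proteins recognised as Ly6C, was higher in Sca-1+ cells by a log2 fold change within 1 SE of that of the sort marker. It was counted at 952, 1215, 1287 and 1410 CPM in the Sca-1+ libraries (7, 13, 15 and 19) and at 0.660, 0.349, 0.170, 2.78 and 0.285 CPM in the Sca-1- libraries (8, 10, 14, 16 and 22). Again the fractions did not overlap, and library 16 was the highest Sca-1- library, with 84 counts where the other 4 had 4 to 11. The log2 fold change was 10.42 (SE 0.91, adjusted p = 3.30e-05, edgeR), on means of 1216 ± 194 CPM and 0.850 ± 1.10 CPM. Without library 16 it was 11.72, with a Sca-1- mean of 0.366 CPM.

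Ly6c2, its near-identical neighbour, encodes the other protein recognised as Ly6C. It was counted at 2.04, 1.26, 1.0 and 16.8 CPM in Sca-1+ libraries 7, 13, 15 and 19, and at 6.66, 3.14, 8.10, 1.29 and 3.90 CPM in the Sca-1- libraries. The fractions overlapped, with Sca-1+ library 19 above every other library and the other 3 Sca-1+ libraries among the lowest. The log2 fold change was 0.19 (SE 0.87, adjusted p = 0.876, edgeR). Without library 19 it was -1.68 (SE 0.65, adjusted p = 0.0703), so the direction rested on that library. It was also negative, at -0.06, without Sca-1- library 16, and at -0.56 (adjusted p = 0.604) in limma voom. In Sca-1+ libraries 7, 13 and 15 the count of Ly6c2 was 0.215%, 0.104% and 0.0777% of that of Ly6c1, and in library 19 it was 1.19%. Whether reads of Ly6c1 were counted for Ly6c2 was not tested.

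RefSeq's promoter table on GRCm38.p6 holds 3 of the members (Ly6c1, Ly6c2 and Ly6g). The bases before the first listed start of Ly6c1 and Ly6c2 are shown because the coding sequences are nearly the same and the levels were not. Each is given 5′ to 3′ on the minus strand, Ly6c1 at chr15:75048838-75049087 and Ly6c2 at chr15:75111972-75112221, with capitals for the letters GGAAGT on either strand, the core of a motif bound by Ets factors.
Ly6c1: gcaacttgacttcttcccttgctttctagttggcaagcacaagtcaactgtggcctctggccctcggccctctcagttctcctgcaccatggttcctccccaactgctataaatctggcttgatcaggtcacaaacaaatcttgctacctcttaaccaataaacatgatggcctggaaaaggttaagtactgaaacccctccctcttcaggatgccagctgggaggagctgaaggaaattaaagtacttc
Ly6c2: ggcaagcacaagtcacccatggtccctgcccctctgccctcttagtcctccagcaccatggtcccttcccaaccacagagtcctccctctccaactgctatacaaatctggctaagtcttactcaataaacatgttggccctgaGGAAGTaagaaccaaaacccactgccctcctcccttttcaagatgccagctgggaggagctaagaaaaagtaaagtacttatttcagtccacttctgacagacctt
In windows of 300 bases (250 before to 50 after the start), GGAAGT on either strand was found 0 times for Ly6c1 and 2 times for Ly6c2 at the first listed start, and 1 and 2 times at the second. For Ly6g it was found 1 and 2 times. Of the 32851 windows in the table, 23.8% hold it. The GATA letters AGATAA, which 11.2% of windows hold, and the interferon gamma-activated letters TTCNNNGAA, which 8.30% hold, were not found in these windows of the 3 genes. The first listed windows of Ly6c1 and Ly6c2 match at 208 of 334 alignment columns (62.3%).

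Gpihbp1 (75596628 to 75599481, plus strand) lies 602 kb from the start of Ly6a. It was counted at 913, 962, 1056 and 731 CPM in Sca-1+ libraries 7, 13, 15 and 19, and at 9.96, 1.54, 15.4, 25 and 11.5 CPM in Sca-1- libraries 8, 10, 14, 16 and 22. The fractions did not overlap, with library 19 the lowest of the Sca-1+ libraries, and libraries 10 and 16 the lowest and highest of the Sca-1- libraries. The log2 fold change was 6.17 (SE 0.66, adjusted p = 8.24e-05, edgeR), on means of 915 ± 137 CPM and 12.7 ± 8.54 CPM.

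Ly6e (74955051 to 74959905, plus strand) encodes a Ly6 protein found on many cell types, known for its interferon response and as a receptor for a syncytin. It was counted at 2964, 3948, 2997 and 3486 CPM in the Sca-1+ libraries and at 109, 125.8, 368, 696 and 338 CPM in the Sca-1- libraries (8, 10, 14, 16 and 22). No Sca-1- library fell under 109 CPM, and the highest, library 16, was still below the lowest Sca-1+ library. The log2 fold change was 3.36 (SE 0.54, adjusted p = 0.000726, edgeR), on means of 3349 ± 466 CPM and 327 ± 238 CPM.

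Ly6d (74762056 to 74763620, minus strand) encodes a protein of keratinocytes that also marks early B-lineage progenitors. It was counted at 0.749, 0, 0 and 10.8 CPM in Sca-1+ libraries 7, 13, 15 and 19, and at 4.56, 0.907, 8.39, 7.19 and 31.3 CPM in Sca-1- libraries 8, 10, 14, 16 and 22. Library 19 overlapped the Sca-1- fraction, and the other 3 Sca-1+ libraries lay below it. The log2 fold change was -1.86 (SE 1.57, adjusted p = 0.361, edgeR). Without library 19 it was -5.36 (SE 1.68, adjusted p = 0.0320), and of all genes tested in those 8 libraries 18.9% were lower. In limma voom on all 9 libraries it was -5.03 (adjusted p = 0.0469).

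Ly6g (75155240 to 75159126, plus strand), whose protein marks neutrophils, had 2, 3, 0 and 31 counts in Sca-1+ libraries 7, 13, 15 and 19 and 1, 0, 0, 0 and 2 counts in the Sca-1- libraries. Library 19 alone was above the floor of 3 counts. Ly6k (74796874 to 74799986, minus strand), a gene known from testis and germ cells, had 16, 0, 16 and 5 counts in the Sca-1+ libraries and 0, 6, 20, 0 and 0 in the Sca-1- libraries, with no order between the fractions. It lies antisense to Gm17189, with which 32.7% of its 50-base windows are shared, and the strand setting of the counting is not given in the sources used here. On log2 CPM with a prior count of 2, a two-sided exact permutation test of the fraction labels gave p = 0.167 for Ly6g and p = 0.508 for Ly6k. A difference in either gene was not detectable at this depth.

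Levels were compared between genes as CPM per kilobase of merged exons. In Sca-1+ cells Ly6a (939 ± 154), Ly6e (885 ± 123) and Ly6c1 (725 ± 115) led, and neighbours in this order did not differ beyond their SDs. Gpihbp1, at 358 ± 53.5 CPM per kilobase, lay below these and above Ly6d (3.88 ± 7.11), Ly6c2 (1.92 ± 2.81), Ly6k (0.389 ± 0.329) and Ly6g (0.363 ± 0.607), whose ranges of 1 SD overlapped from each to the next. In Sca-1- cells Ly6e led at 86.5 ± 62.8 CPM per kilobase. It was followed by Ly6d (14.1 ± 16.1), Gpihbp1 (4.96 ± 3.34), Ly6c2 (1.69 ± 1.0), Ly6a (0.562 ± 0.434), Ly6c1 (0.507 ± 0.654), Ly6k (0.306 ± 0.457) and Ly6g (0.0300 ± 0.0419), and neighbours in this order also overlapped within 1 SD.

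Because 22 of the 25 endothelial genes were lower in the Sca-1- libraries, the log2 CPM of each member was also taken relative to that of the endothelial list (25 genes, mean) in the same library. That mean was 8.72 to 8.90 in Sca-1+ libraries and 3.67 to 5.19 in Sca-1- libraries. On this scale Ly6a, Ly6c1 and Gpihbp1 remained higher in Sca-1+ cells and Ly6e was not. The difference in log2 ratio was 6.83 for Ly6c1 (1.41 ± 0.28 in Sca-1+, and -5.42 ± 1.35 in Sca-1-) and 2.47 for Gpihbp1 (1.0 ± 0.23 and -1.47 ± 0.95). Both had p = 0.00794, the smallest two-sided p the exact permutation test can give with 4 and 5 libraries, as did the sort marker Ly6a with a difference of 6.67. For Ly6e the ratio was 2.87 ± 0.27 and 3.32 ± 0.79, the fractions overlapped, and the difference was -0.44 (exact permutation p = 0.341). It was -0.88 relative to the list's median (exact permutation p = 0.0238), -1.70 relative to Cdh5 alone and -1.24 relative to 18 list genes without 7 that blood cells also express (exact permutation p = 0.0238 and p = 0.0317). Against the same 3 references the difference for Gpihbp1 fell to 2.04, 1.22 and 1.68 (exact permutation p = 0.00794, p = 0.0238 and p = 0.00794). For Ly6c1 it was 6.39, 5.57 and 6.04 (exact permutation p = 0.00794 each).

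Ly6c2 and Ly6d were lower in Sca-1+ cells on the same relative scale, by differences of -4.68 and -7.76 (exact permutation p = 0.00794 each), with no overlap between the fractions. For Ly6c2 the gap was narrow, with Sca-1+ library 19 at -4.74 and Sca-1- library 16 at -4.67. The ratios of genes with few counts depend on the prior count. In the edgeR fit with libraries scaled to the same 25 genes, 3 of the 6 members (Ly6a, Ly6c1 and Gpihbp1) were higher, where 1.64% of all genes were, and 2 (Ly6c2 and Ly6d) were lower, where 87.3% were. That scaling moved the median log2 fold change of all genes to -4.10 and the calls from 3721 higher and 3416 lower to 261 higher and 13910 lower. Ly6e, at -0.58 (adjusted p = 0.26), lay above that median.

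**Figure D2:**
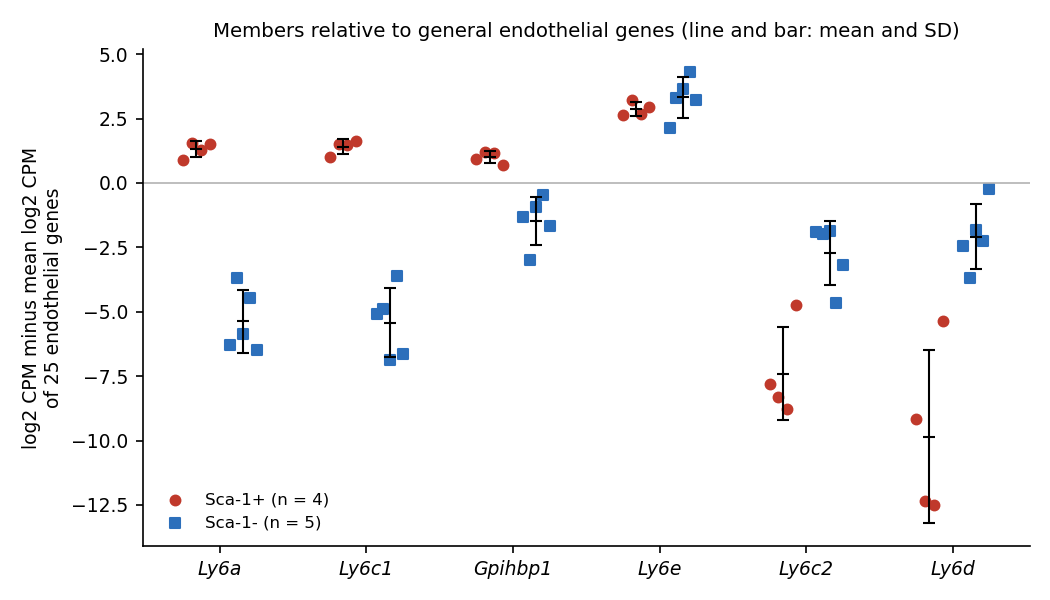
Log2 CPM of the 6 members that passed the filter minus that of 25 endothelial genes (mean) in each library (Sca-1+ circles, Sca-1- squares, mean and SD in black). Ly6a, Ly6c1 and Gpihbp1 lie above 0 in every Sca-1+ library and below 0 in every Sca-1- library, while Ly6e lies above 0 in all 9.

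Within the Sca-1- fraction the 4 higher members did not share 1 order. Library 16 was the highest for Ly6a, Ly6c1, Ly6e and Gpihbp1, and it also had the highest Cdh5, at 13.1 CPM where the other Sca-1- libraries had 2.44 to 7.38. Library 10, with the lowest Cdh5, had the lowest Gpihbp1 (1.54 CPM) and the second highest Ly6a (0.907 CPM, from 13 counts). The part that remaining Sca-1+ ECs had in these levels was not tested.

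The 3 low members were set beside lists of marker genes of other cells. In Sca-1+ library 19 the 16 neutrophil genes summed to 807 CPM, against 11.8 to 128 CPM in the other 3 Sca-1+ libraries and 242 to 849 CPM in the Sca-1- libraries. Among them S100a8, which encodes a calcium-binding protein of neutrophils, had 4309 counts in library 19 and 47 to 57 in the others of that fraction. In CPM, 11 of the 16 were higher in library 19 than in every other Sca-1+ library. The other 5 (Elane, Mpo, Prtn3, Ctsg and Mmp9, named after their values were seen) were highest in library 7, with 70 to 1922 counts there and 0 to 290 in library 19. Elane, Mpo, Prtn3 and Ctsg encode granule proteins made early in neutrophil development. The 5 Sca-1- libraries had 166 to 1379 counts of S100a8, and Ly6g was at or under the floor in all 5. None of the 16 neutrophil genes was at 0 throughout either fraction. Ly6c2 and the summed neutrophil genes put the libraries of each fraction in the same order, which was noticed after the values were seen. In Sca-1+ libraries 19, 7, 13 and 15 that sum was 807, 128, 12.7 and 11.8 CPM. In Sca-1- libraries 14, 8, 22, 10 and 16 it was 849, 557, 310, 283 and 242 CPM.

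The 16 B and plasma cell genes summed to 2302 CPM in library 19 and to 119 to 137 CPM in the other Sca-1+ libraries. Igkc, the constant region of the kappa light chain, had 51186 counts in library 19 and 7 to 18 in the others. Jchain, which joins secreted immunoglobulin and was chosen after its values were seen, had 940 counts and 4 to 25. In the Sca-1- libraries the same list summed to 46.8 to 957 CPM, with library 22 the highest, as it was for Ly6d. Library 14, the highest Sca-1- library for Ly6c2 at 8.10 CPM, was at 244 CPM on this list. Ms4a1, which encodes a surface protein of mature B cells, had 0 counts in all 4 Sca-1+ libraries and 0 to 28 in the Sca-1- libraries. Ebf1, a transcription factor gene that is not particular to B cells, had 3382 to 6734 counts in Sca-1+ libraries. The 13 monocyte and macrophage genes summed to 389 to 439 CPM in Sca-1+ libraries, library 19 included, and to 1144 to 3386 CPM in Sca-1- libraries. Their mean log2 CPM was 2.13 in library 19, 0.491 to 0.590 in the other Sca-1+ libraries and 0.844 to 2.69 in Sca-1- libraries. For 12 general leukocyte genes it was 3.28 in library 19, 0.266 to 1.44 in the other Sca-1+ libraries and 6.07 to 7.91 in Sca-1- libraries. The part of these cells in the levels of Ly6g, Ly6c2 and Ly6d was not tested.

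**Figure D3:**
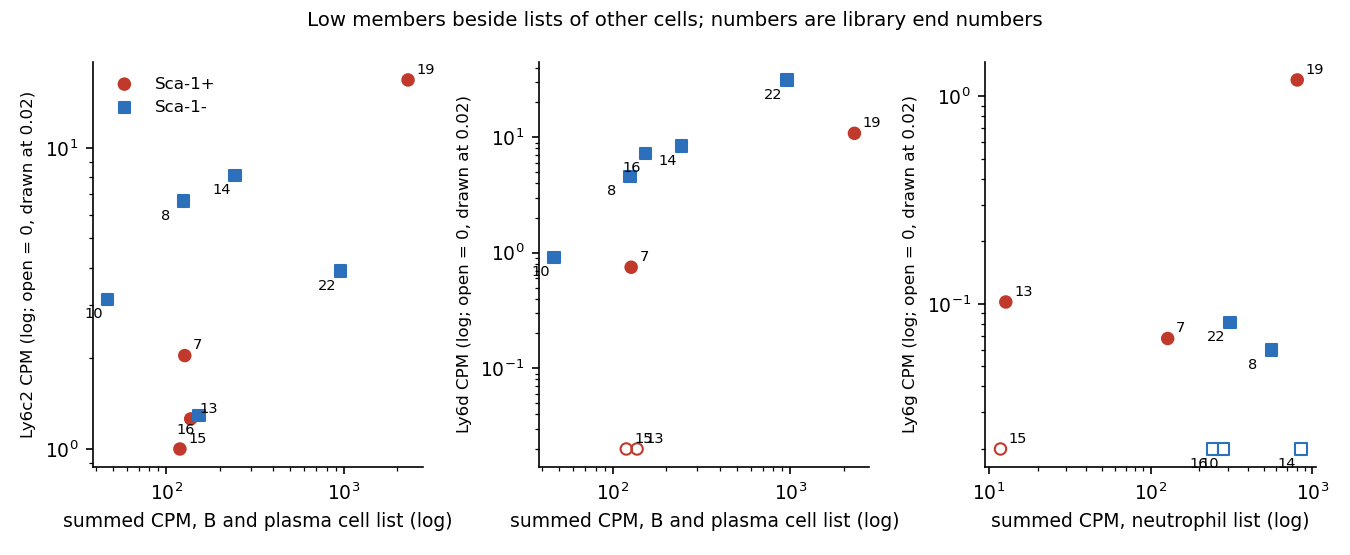
CPM of Ly6c2 and Ly6d against the summed CPM of B and plasma cell genes, and of Ly6g against that of neutrophil genes, on log axes. Each point is a library named by its end number, and Ly6c2 is not drawn against the neutrophil genes. Library 19 is the highest Sca-1+ library on both axes of all 3 panels, and library 22 the highest Sca-1- library for Ly6d and the B and plasma cell list. In Sca-1+ libraries 7, 13 and 15 most of the B and plasma cell sum is Ebf1.

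Along chromosome 15 from Psca to Gpihbp1, the genes tested did not all differ in 1 direction. Of the 38 genes from Psca to Gpihbp1 that are no members, 20 had no count in any library, 18 had at least 1 and 4 passed the filter. Among these 4, Hemt1 (the gene listed as Gml2, which lies 176 kb before Ly6a) was lower in Sca-1+ cells, with 0 or 1 counts per Sca-1+ library and 4 to 70 in the Sca-1- libraries. Without Sca-1- library 8, 14, 16 or 22 it no longer passed the filter, and it was called in the other 5 fits that left out 1 library. With the Sca-1+ libraries set to their floor of 3 counts each, the Sca-1- mean was at least 13.1-fold higher. Lynx1, which encodes a Ly6 protein that binds nicotinic receptors, was at 3.39 ± 0.84 CPM and 0.862 ± 0.653 CPM and missed the threshold (log2 fold change 1.99, SE 0.89, adjusted p = 0.0921, edgeR). Without Sca-1- library 16 it passed (log2 fold change 1.65, adjusted p = 0.0236, edgeR). Them6 had a log2 fold change of 0.06 (adjusted p = 0.93).

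Ly6i, a close relative 15.3 kb from the start of Ly6a, was higher in Sca-1+ cells, with 17 to 63 counts per library, against 5 counts in Sca-1- library 10 and 0 in the other 4 (log2 fold change 4.18, SE 1.28, adjusted p = 0.0226, edgeR). The call was lost without Sca-1- library 8 (adjusted p = 0.0513), without Sca-1+ library 19 (0.0755) and with libraries scaled to the endothelial genes (log2 fold change -0.28, adjusted p = 0.873). In the 6 libraries with consecutive end numbers, with the pair as a block, the adjusted p was 0.0603. It shares 50-base windows with Ly6a and Ly6c1, which had 25643 counts or more in every Sca-1+ library, so its counts are uncertain.

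**Figure D4:**
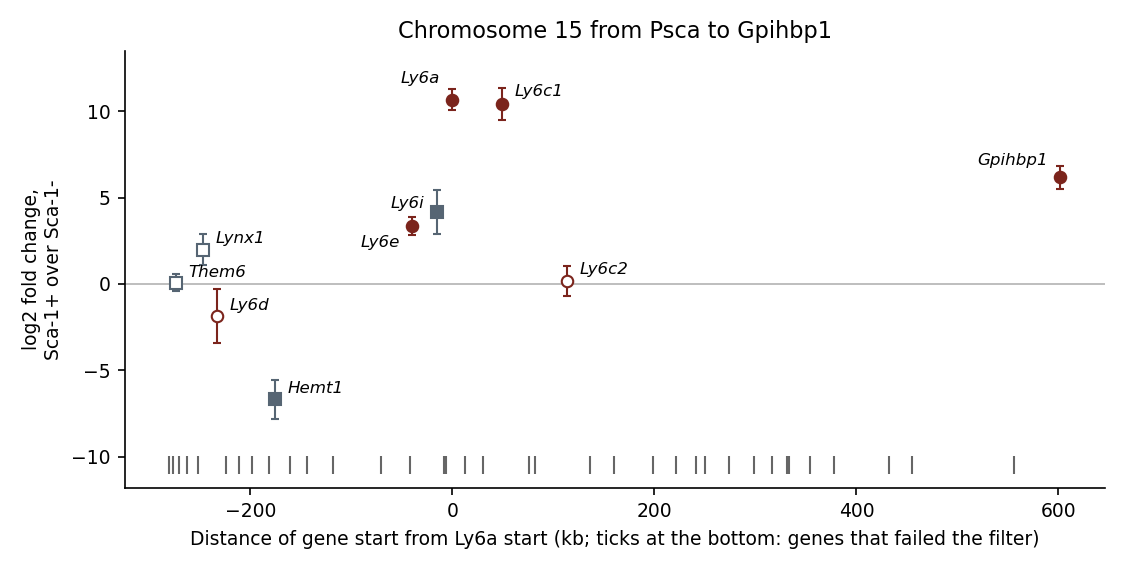
Log2 fold change with 1 SE of each gene that passed the filter against the distance of its start from that of Ly6a, with members as circles, other genes as squares and filled symbols for an adjusted p under 0.05. Ly6e, Ly6i, Ly6a and Ly6c1 lie above 0 (with libraries scaled to the endothelial genes Ly6e and Ly6i fall below it), Ly6c2 lies at 0.19 on the far side of Ly6c1, and Hemt1 lies at the lowest value.

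Among 39 other genes of the Ly6/uPAR family, 35 could be matched to the table and 13 passed the filter. Of these 13, 3 were higher (Ly6i, Ly6g6e and Plaur) and 6 lower (Ly6g6f, Ly6g6c, Hemt1, Cd59b, Lypd6 and Ly6g6d) in Sca-1+ cells, with a median log2 fold change of -2.11. These were 23.1% and 46.2% of the 13, against 23.3% and 21.4% of all genes tested. The largest differences ran against the sort marker. Ly6g6f, which encodes a platelet membrane protein with an immunoglobulin-like domain and is in the family by name, had 0 to 9 counts in a Sca-1+ library and 4011 to 9387 in a Sca-1- library (log2 fold change -11.50, SE 1.04, adjusted p = 3.62e-05, edgeR). Ly6g6c, its neighbour on chromosome 17, had 18 to 59 and 1503 to 3898 counts (log2 fold change -6.79, SE 0.66, adjusted p = 4.79e-05). With libraries scaled to the endothelial genes, 0 of the 13 were higher (against 1.64% of all genes) and 9 lower (69.2%, against 87.3%).

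Exons of Ly6g6c overlap those of Mpig6b on the opposite strand, an inhibitory receptor gene of megakaryocytes that was chosen for this overlap after its values were seen. Mpig6b was counted at 0.601 ± 0.515 CPM and 549 ± 327 CPM, so the counts of Ly6g6c cannot be told apart from its own. Ly6g6d and Ly6g6e overlap each other on opposite strands. They moved in opposite directions, at -2.16 (SE 0.60, adjusted p = 0.0147) and 2.49 (SE 0.65, adjusted p = 0.0102), and both are uncertain for the same reason.

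Plaur, the urokinase receptor, was higher in Sca-1+ cells, at 326 ± 57.8 CPM and 26.8 ± 12.0 CPM, with a log2 fold change of 3.61 (SE 0.40, adjusted p = 9.93e-05, edgeR). Of the pair of genes for the complement inhibitor CD59, Cd59a was at 77.4 ± 7.93 CPM and 122 ± 51.6 CPM (log2 fold change -0.65, adjusted p = 0.113). Cd59b was lower in Sca-1+ cells, at 0.787 ± 0.394 CPM and 18.0 ± 8.24 CPM (log2 fold change -4.50, SE 0.53, adjusted p = 0.00013). The test of Cd59b against Cd59a was not made.

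**Figure D5:**
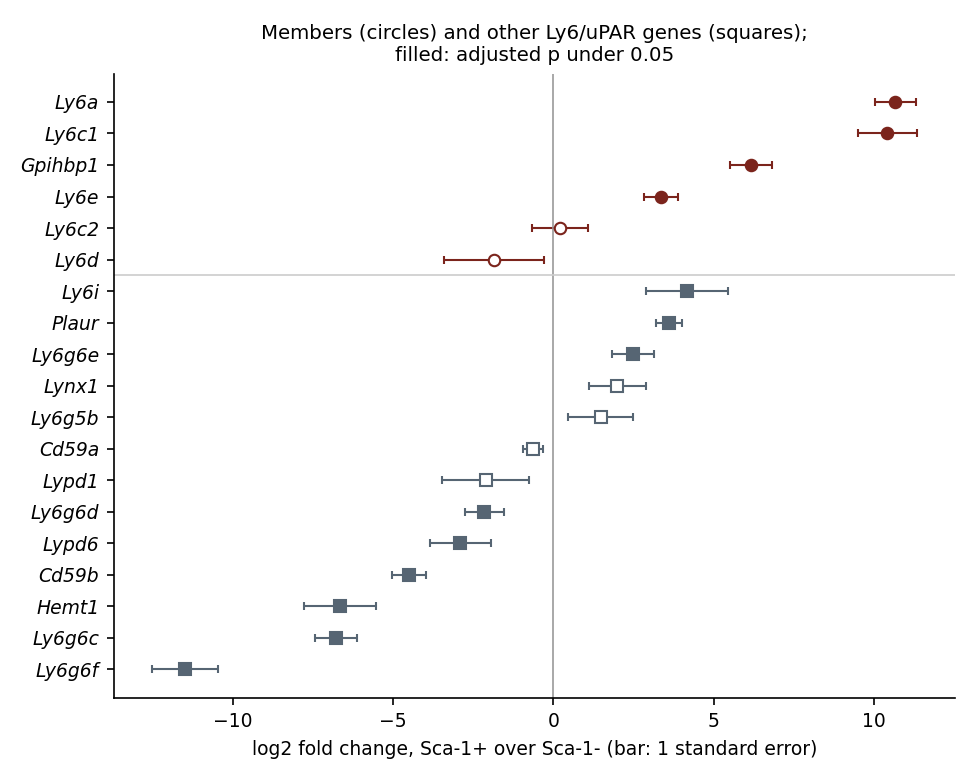
Log2 fold change (Sca-1+ over Sca-1-) with 1 SE for the 6 members and 13 other Ly6/uPAR family genes that passed the filter, filled where the adjusted p was under 0.05. Members range from -1.86 (Ly6d) to 10.67 (Ly6a) and the other genes from -11.50 (Ly6g6f) to 4.18 (Ly6i).

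Gpihbp1 was set beside 30 genes of lipoprotein lipase handling and fatty acid uptake. Of the 25 tested, 17 were higher (68.0%, against 23.3% of all genes tested) and 3 lower (12.0%, against 21.4%) in Sca-1+ cells, with a median log2 fold change of 2.44. Lpl, the lipase that GPIHBP1 binds, was named for that role after its values were seen, and was at 275 ± 87.6 CPM and 24.9 ± 11.8 CPM, with a log2 fold change of 3.47 (SE 0.40, adjusted p = 0.000115, edgeR). Cd36, a fatty acid transporter, and Fabp4, a fatty acid carrier, were higher by log2 fold changes of 7.31 (SE 0.90, adjusted p = 0.000166) and 6.40 (SE 0.73, adjusted p = 0.000113). Tcf15, a transcription factor of fatty acid uptake in ECs, was higher by 7.31 (SE 0.38, adjusted p = 5.68e-06). Scarb1, the HDL receptor, was higher by 1.59 (SE 0.21, adjusted p = 0.000226). The glycerol channel gene Aqp7, at 99.4 ± 45.9 CPM in Sca-1+ cells, had at most 1 count in any Sca-1- library and was at least 673-fold higher against a floor of 3 counts per library. With libraries scaled to the endothelial genes, 5 of the 25 were higher (20%, against 1.64% of all genes) and 13 lower (52.0%, against 87.3%).

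Among genes that make and attach GPI anchors, the shares called were near those of all genes tested. Of the 29 tested of 31 in the table, 5 were higher (17.2%, against 23.3% of all genes) and 6 lower (20.7%, against 21.4%) in Sca-1+ cells, and the median log2 fold change was 0.06. Pign, Piga and Pigl, which act in anchor synthesis, were lower by log2 fold changes of -2.69 (SE 0.36), -1.78 (SE 0.26) and -1.76 (SE 0.31), with adjusted p of 0.00025, 0.000426 and 0.00123. Tmed10, a cargo receptor for anchored proteins, was higher by 0.84 (SE 0.18, adjusted p = 0.00377), while Tmed2 (0.06, adjusted p = 0.782) and the transamidase subunit gene Gpaa1 (0.56, adjusted p = 0.106) missed the threshold. With libraries scaled to the endothelial genes, all 29 were lower, as were 87.3% of all genes.

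Several Ly6 genes respond to interferon, and 36 interferon receptor and response genes were all tested. In Sca-1+ cells 26 were higher (72.2%, against 23.3% of all genes tested) and 5 lower (13.9%, against 21.4%), with a median log2 fold change of 1.83. Their summed CPM overlapped between the fractions, at 5938 to 9644 CPM in Sca-1+ libraries and 3068 to 10197 CPM in Sca-1- libraries. As a share of counts, without TMM scaling, they took 0.723% to 1.08% in Sca-1+ and 0.356% to 0.592% in Sca-1- libraries, with no overlap. Sca-1- library 10, which had the lowest TMM factor (0.58), had the highest sum in CPM but 0.592% of counts. The GTPase genes Iigp1, Gbp4 and Gbp3 were higher, by 6.14 (SE 0.88, adjusted p = 0.000369), 5.52 (SE 0.70, adjusted p = 0.00019) and 4.26 (SE 0.46, adjusted p = 8.43e-05). Ifitm3, a membrane protein gene that limits virus entry, was at 1599 ± 210 CPM and 374 ± 89.1 CPM (log2 fold change 2.10, SE 0.25, adjusted p = 0.000151). Igtp, another interferon-induced GTPase gene, went the other way (log2 fold change -3.20, SE 0.71, adjusted p = 0.00441), and Jak1, a kinase of the receptors, was at -0.99 (adjusted p = 0.107). With libraries scaled to the endothelial genes, 2 were higher (5.56%, against 1.64% of all genes) and 28 lower (77.8%, against 87.3%).

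The genes whose profiles were most like those of each member were found by the root mean square (RMS) difference of mean-centred log2 CPM over the 9 libraries, among 9869 genes whose average log2 CPM reached 3, and are given as a description. For Ly6a and Ly6c1 the nearest was Slc26a10, a gene of the anion transporter family (RMS 0.573 and 0.940), followed by Aqp7 (0.785 and 1.02). The third was Gm12002 for Ly6a (1.02) and Sox17, a transcription factor of arterial ECs, for Ly6c1 (1.29). Gm26840 (0.370), the adhesion receptor gene Adgrl4 (0.538) and Igfbp7 (0.568), whose product is secreted by ECs, were nearest to Gpihbp1. Abcg1 (0.295), Zscan26 (0.306) and Apoe (0.309) were nearest to Ly6e. For Ly6d the nearest were Blnk (1.19), an adaptor gene of B cells, Il1b (1.34) and Cd79b (1.47), a subunit of the B cell receptor. Per1, Ppm1l and Sap130 were nearest to Ly6c2 (0.768 to 0.831). Of these 18 names 16 stayed among the nearest 20 without library 19, and the 2 that did not, Per1 and Ppm1l, were both nearest to Ly6c2.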

How the data were processed

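RNA-seq was done on sorted BM cells labelled as ECs, 4 Sca-1+ and 5 Sca-1- libraries. The authors deposited 1 table of read counts per gene, whole numbers with no normalization, and the submitters' processing notes name STAR, featureCounts and mm10 without roles or versions. Strand and multi-mapping settings are not given in the sources used here. The 8 members and the gene lists were chosen with earlier results of these data known.

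Tests were run with edgeR 4.0.16 under R 4.3.3: filterByExpr (minimum count 10, minimum total 15), TMM and the quasi-likelihood F-test, two-sided, adjusted by Benjamini-Hochberg over 15937 genes at a threshold of 0.05. SEs came from F. DESeq2 1.42.0, limma 3.58.1 (voom), other normalizations, no filter, a robust fit and each library left out were alternatives. Log2 CPM used a prior count of 2. The edgeR step was tested on simulated data.

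The 15 lists hold 293 symbols, of which 288 matched the table by name or identifier. Beside members, relatives and neighbours that passed the filter, the rule for named genes takes the 3 highest and the 3 most changed genes of each list, and the 3 nearest profiles of each member. Genes outside it are marked as such. GENCODE M21 (GRCm38, the same coordinates as mm10) holds 45229 of the 46078 identifiers. Libraries of 1 fraction differed beyond sampling noise (chi-square over degrees of freedom between 36.8 and 538), so none was a copy. Nothing says that libraries came from separate animals, so the spread within a fraction, against which the tests weigh a difference, may be technical. Alignments used Biopython 1.88 and plots matplotlib 3.10.9 in Python 3.11.15.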

Additional observations from a re-analysis of the deposited data

Results flagged for a closer look

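In 5 of 16 sets of libraries (8 genes in each fraction) 1 library stood apart from the others in CPM by Dixon's gap test. Chance alone does this in about 1 in 20 sets of normally distributed values. The 16 sets share libraries and hold CPM near 0, so 5 of 16 cannot be weighed against that share. Sca-1+ library 19 stood apart for 3 genes. Ly6c2 was at 16.8 CPM there and at 1.0 to 2.04 CPM in the other 3, Ly6d at 10.8 CPM and 0 to 0.749 CPM, and Ly6g at 1.2 CPM and 0 to 0.102 CPM. Ly6d in Sca-1- library 22 was at 31.3 CPM, against 0.907 to 8.39 CPM in the other 4. Ly6c1 in Sca-1- library 16 was at 2.78 CPM, against 0.170 to 0.660 CPM. On the log2 scale none of the 16 sets (0) had such a library.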

How the results depend on the processing

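Of 114 refits of the 6 members' log2 fold changes, 104 kept direction and side of the threshold. Calls of Ly6a, Ly6c1 and Gpihbp1 held in all 19 alternative fits, and that of Ly6e in all but the scaling to general endothelial genes. That scaling gave -0.58 for Ly6e, -3.97 for Ly6c2 and -5.65 for Ly6d, with 261 genes higher and 13910 lower. Under it 5 of 25 lipase and fatty acid genes and 2 of 36 interferon genes were higher, where 1.64% of all genes were. Of 13 other Ly6/uPAR family genes, 29 GPI anchor genes and 4 neighbours on chromosome 15, 0 were higher. Lower were 9 of the 13 other family genes, 29 GPI anchor, 13 lipase and fatty acid, 28 interferon and 2 neighbour genes, where 87.3% of all genes were. Limma voom gave -0.56 for Ly6c2, -5.03 for Ly6d and 2 higher neighbours, and called 4397 of all genes higher and 3335 lower. With library size only, 2 neighbours were higher and 3 GPI anchor genes lower. All genes called in that fit were 4158 higher and 2431 lower, against 3721 and 3416 in the main fit. Without the filter, 4 neighbours were higher, 2 neighbours lower and 5 lipase and fatty acid genes lower. Of the 26424 genes then tested, 3876 were higher and 3350 lower. The cause of these changes was not tested.

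With 1 library left out at a time, the log2 fold change ranged from -1.68 (without Sca-1+ 19) to 0.54 for Ly6c2 and from -5.36 (without Sca-1+ 19) to -0.88 for Ly6d. Ly6c2 was also below 0, at -0.06, without Sca-1- 16. Called other Ly6/uPAR family genes ranged from 2 to 5 (higher), interferon genes from 3 to 6 (lower), and neighbours from 0 to 2 in each direction, with Ly6i lost without Sca-1- 8 or Sca-1+ 19 and Hemt1 not tested without Sca-1- 8, 14, 16 or 22. All genes called in these fits ranged from 3098 to 3708 (higher) and from 2859 to 3577 (lower). Ly6c1 ranged from 10.08 to 11.72 (without Sca-1- 16).

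End numbers 7 and 8, 13 and 14, and 15 and 16 follow each other. Titles 15 and 16 also share a number, and 13 and 14 the mark CD452 (as does 22), but no label says that these mark an animal. The libraries of these pairs had deviations correlated at 0.147, 0.148 and 0.042 across genes, so the numbers were not taken to pair them, although each of the 6 correlated best with its own partner. These 6 libraries with the pair as a replicate block gave 2265 genes higher and 2075 lower, 1 other Ly6/uPAR family gene and 0 neighbours higher, 2 GPI anchor genes lower and -1.60 for Ly6c2. Without the block they gave 2768 genes higher and 2592 lower, 2 higher neighbours, 3 lower GPI anchor genes and -1.90 for Ly6c2.

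The log2 ratio of Ly6e to endothelial genes differed by -0.88 against the list's median and -1.70 against Cdh5 (exact permutation p = 0.0238 each), and by -1.24 against the 18 list genes left without those of blood cells (p = 0.0317, exact). That of Gpihbp1 was smallest against Cdh5, at 1.22 (exact permutation p = 0.0238). Depth limits Ly6g, Ly6k and the Sca-1- levels of Ly6a and Ly6c1, which rest on 4 to 84 counts.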
